A study of Mus musculus with 2 samples.

Results

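Levels of 10 genes of MHC class II antigen presentation and of dendritic cells were compared between a hepatocellular carcinoma of an HLF-deficient mouse and one of a WT mouse, both given the liver carcinogen DEN (diethylnitrosamine). The members were chosen by symbol, as the probe sets that the platform annotation gives to H2-Aa, H2-Ab1, H2-Eb1, H2-DMa, Cd74, Ciita, Flt3, Clec9a, Cd209a or Zbtb46 and to no other gene. All 10 were found among 19938 genes named in this way, each with 1 probe set. HLF (hepatic leukemia factor) is a PAR bZIP transcription factor. Each genotype was represented by 1 array of RNA from whole carcinoma tissue, so there are no replicates: no test, error or interval can be given, and how far tumours of one genotype differ among themselves is unknown. The strain, sex and age of the mice, the tissue in which Hlf was deleted and any pooling of animals are not given in the sources used here.

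MHC class II molecules are dimers of an alpha and a beta chain that show peptides from endosomes to CD4 T cells. The invariant chain, encoded by Cd74, escorts new dimers to endosomes, where cathepsins degrade it and the H2-DM dimer helps to exchange its last fragment for a peptide. Class II genes are switched on together by the coactivator CIITA, which has no DNA contact of its own and docks on RFX, CREB and NF-Y proteins bound to the X and Y boxes of their promoters. Dendritic cells, B cells and macrophages carry class II at rest, and interferon gamma can induce it in other cells through CIITA. In liver, class II is found on Kupffer cells, dendritic cells, B cells and sinusoidal endothelium.

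The promoters of some class II genes share letters of the X and Y boxes. Of the 10 genes, 7 had a window that was searched, taken from the RefSeq promoter table (GRCm38.p6, 250 bases before to 50 after a gene's start). No window was searched for Cd74, H2-Ab1 or Ciita, so whether their promoters hold these letters was not tested. The letters GCAAC, a core of the X box, followed on the same strand after 15 to 45 bases by GATTGG, a core of the Y box, were searched for on both strands, and the letters do not overlap. This pair was present in 0.508% of the 32851 windows searched, and GCAAC alone in 35.2% and GATTGG alone in 16.1%. Of 8 class II chain genes with a searched window, 5 held it: H2-Aa and H2-Eb1 and the related H2-Eb2, H2-Oa and H2-Ob. It was absent from the windows of H2-DMa, H2-DMb1 and H2-DMb2, and from those of Flt3, Clec9a, Cd209a and Zbtb46. The 5 stretches are shown because they carry the same pair of letters in front of a gene that was far above the floor, H2-Aa, and of 4 that were near or under it. They run 5′ to 3′ along the gene, with GCAAC and GATTGG in capitals. H2-Aa lies on the minus strand at chr17:34287847-34287924. H2-Eb1 lies on the plus strand at chr17:34305756-34305832, H2-Eb2 at chr17:34325523-34325599, H2-Oa at chr17:34092283-34092360 and H2-Ob at chr17:34238798-34238872.
H2-Aa: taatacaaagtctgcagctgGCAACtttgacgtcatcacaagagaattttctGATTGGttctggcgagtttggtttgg
H2-Eb1: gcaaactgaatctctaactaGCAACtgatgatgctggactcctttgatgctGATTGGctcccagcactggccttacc
H2-Eb2: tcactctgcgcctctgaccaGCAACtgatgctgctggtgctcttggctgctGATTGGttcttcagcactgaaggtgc
H2-Oa: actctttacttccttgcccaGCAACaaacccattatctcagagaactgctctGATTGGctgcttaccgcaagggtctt
H2-Ob: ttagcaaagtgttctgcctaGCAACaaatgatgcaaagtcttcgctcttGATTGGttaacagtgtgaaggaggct
The spacing between the 2 sets of letters was 27 bases in H2-Aa and H2-Oa, 26 bases in H2-Eb1 and H2-Eb2 and 24 bases in H2-Ob.

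Levels are log2 RMA values, and each difference is the HLF-deficient level minus the WT level. A floor of expression was set at 2.97, the 95th percentile over 1248 probe sets of olfactory, vomeronasal and taste receptors, genes that liver does not use. The 14601 genes at or above it on at least 1 array were compared, and a gene was counted as different when the levels were at least 2-fold apart, a log2 difference of 1. Hlf itself, the check of the labels, had a level of 3.79 in the HLF-deficient tumour and 5.13 in the WT tumour. Hepatocyte genes were at similar levels in both tumours, with albumin (Alb) at 12.41 in the HLF-deficient and 12.55 in the WT tumour. The differences of all compared genes had a median of 0.07. As a guide to technical spread, differences of 1 probe set had an SD of 0.23, taken from the 2 brightest probe sets of 717 genes, which holds no spread between mice or tumours.

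Of the 10 genes, Cd74 and the class II dimer genes H2-Ab1 and H2-Aa were higher in the HLF-deficient tumour, and the other class II chains, Ciita and the dendritic cell markers were near level, lower or under the floor. None of the 9 compared members reached 2-fold, against 1.86% of all compared genes, 1.5% higher and 0.363% lower. At 1.5-fold, 2 of the 9 were higher, Cd74 and H2-Ab1, and none was lower, against 9.49% of all compared genes, 6.37% higher and 3.12% lower. Positive differences were found for 3 of the 9 and negative ones for 6, and 58.2% of all compared genes were positive. The median of the 9 was -0.09. The plot of levels shows 3 genes far above the floor and 7 that lay under it or less than 1.5 above it on both arrays.

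**Figure D1:**
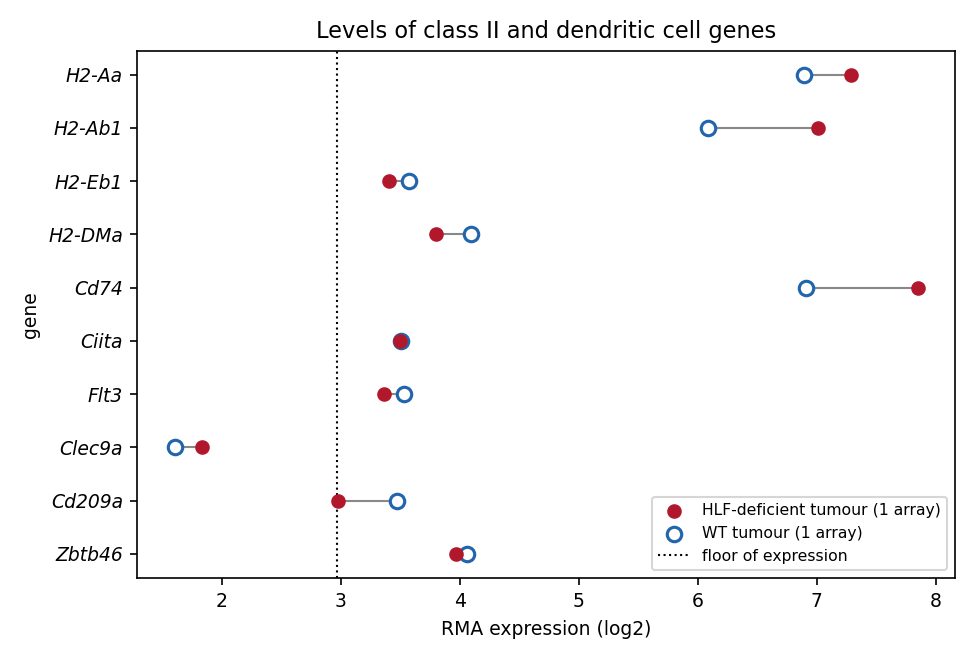
RMA expression (log2, horizontal axis) of the 10 genes in the HLF-deficient tumour (filled red) and the WT tumour (open blue), 1 array each, with the floor of 2.97 as a dotted line. Cd74, H2-Ab1 and H2-Aa lie well above the floor and are higher in the HLF-deficient tumour, while Clec9a lies under the floor in both.

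The classical class II dimer and its chaperone were the brightest of the set. Cd74, the invariant chain, had a level of 7.85 in the HLF-deficient tumour and 6.91 in the WT tumour, a difference of 0.94 or 1.92-fold. This was rank 260 from the highest of the 14601 differences, so 1.78% of genes were as high or higher. H2-Ab1, the beta chain of the I-A dimer, had a level of 7.01 in the HLF-deficient and 6.08 in the WT tumour, a difference of 0.93 or 1.90-fold, and rank 265. Its partner H2-Aa, the I-A alpha chain, was at 7.29 in the HLF-deficient and 6.90 in the WT tumour, a difference of 0.39 or 1.31-fold, and 16.0% of genes were as high or higher. The 2 chains of the same dimer thus had unequal measured differences, and H2-Aa stood less clearly apart from the bulk of genes than H2-Ab1. Each chain was read by 1 probe set on 1 array per genotype, and the gap between the 2 was not tested.

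Bright genes as a whole tended to positive differences on this array pair, and dim genes to negative ones. Among 1286 genes with a mean level within 0.5 of that of Cd74, the median difference was 0.20, and 1.63% were as high as Cd74 or higher. For H2-Ab1 the median of 2118 such genes was 0.24, and 2.27% were as high or higher. For H2-Aa it was 0.22, and 22.5% of the 1540 genes were as high or higher. With this trend removed by loess, the differences were 0.78 for Cd74, 0.76 for H2-Ab1 and 0.23 for H2-Aa. When each array was instead centred on its median, which adds 0.12 to every difference, Cd74 and H2-Ab1 reached 2-fold at 1.06 and 1.05. With the arrays so centred, 294 genes of the series were higher by 2-fold, against 219 as deposited.

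The other class II chains had small differences, mostly negative as deposited. H2-Eb1, the beta chain of the I-E dimer, was at 3.41 in the HLF-deficient and 3.57 in the WT tumour, a difference of -0.17, equal to the median of -0.17 of 3552 genes of like level. H2-Ea, the I-E alpha chain, which was named after its values were seen, lay under the floor at 2.53 in the HLF-deficient and 2.56 in the WT tumour. H2-DMa, the alpha chain of the peptide exchange dimer, was at 3.80 in the HLF-deficient and 4.09 in the WT tumour, a difference of -0.30, where 3411 genes of like level had a median of -0.11. The probe set for its partner names both H2-DMb1 and H2-DMb2, which are near-identical, and was at 4.17 in the HLF-deficient and 4.07 in the WT tumour. H2-Ob, the beta chain of H2-O, an inhibitor of H2-DM in B cells and thymus, had a difference of -0.30, with 3.06 in the HLF-deficient and 3.36 in the WT tumour. H2-Oa and H2-Eb2, named after their values were seen, had levels of 2.95 and 2.40 in the HLF-deficient and 3.21 and 2.25 in the WT tumour. So among the 5 genes whose promoter stretches are printed above, H2-Aa had a difference of 0.39 as deposited. After loess it was 0.230, just within the technical SD of 0.233. H2-Eb1, H2-Oa and H2-Ob had small negative values, which after loess were -0.02, -0.10 and -0.14 and so within the technical SD, and H2-Eb2 was under the floor in both.

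All class II chain genes other than Cd74 lie close together on chromosome 17, interleaved with genes of class I peptide supply. From H2-Oa to H2-Eb2 the RefSeq table lists 14 protein-coding genes, of which 11 were compared, 1 was under the floor on both arrays and 2 had no probe set of their own. The 5 genes of the stretch that are not class II chains had differences from 0.33 to 1.20, and the 6 compared class II chains from -0.30 to 0.93. Tap1, a subunit of the transporter that feeds peptides to class I, was the only one beyond 2-fold, at 6.36 in the HLF-deficient and 5.16 in the WT tumour. H2-Ab1 and H2-Aa lie next to each other, between H2-Ob and H2-Eb1, both of which had negative values. As deposited, positive and negative values were therefore mixed along the stretch, without strict alternation. The 4 negative values were those of H2-Oa, H2-DMa, H2-Ob and H2-Eb1, all dim on both arrays.

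**Figure D2:**
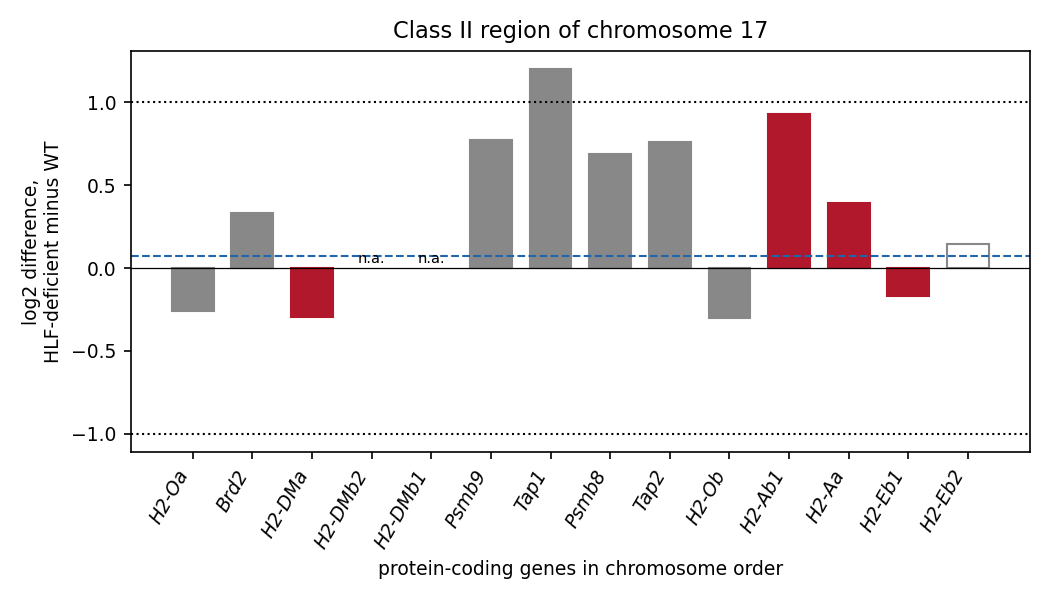
Log2 difference, HLF-deficient minus WT (vertical axis), of protein-coding genes from H2-Oa to H2-Eb2 in chromosome order, with members in red, other genes in grey, an open bar for the gene under the floor on both arrays and n.a. for genes without a probe set of their own. The dashed line is the median of all compared genes, 0.07, and dotted lines mark 2-fold; Tap1 at 1.20 is the only bar past a dotted line.

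Ciita, the coactivator of class II genes, was level: 3.49 in the HLF-deficient and 3.50 in the WT tumour, a difference of -0.01, which was 0.14 after loess. These values lay 0.52 and 0.53 above the floor, where RMA compresses differences. Its 7 partners on the X and Y boxes were all measured, and none reached 1.5-fold. Rfx5, of the RFX complex, and Nfya, of NF-Y, had the largest positive values at 0.31 and 0.24, and Rfxap, also of RFX, was level at -0.00 as deposited, 0.12 with the arrays centred and -0.13 after loess. The median of these 7 was 0.19 as deposited, 0.31 with the arrays centred and 0.03 after loess. Of the interferon gamma axis upstream of Ciita, 0 of 7 compared genes reached 2-fold and 5 were positive, with a median of 0.27 as deposited, 0.18 after quantile normalization and 0.14 after loess. The kinase gene Jak2 was at 6.25 in the HLF-deficient and 5.53 in the WT tumour, a difference of 0.71, and the receptor chain Ifngr1 differed by 0.48. The cytokine Ifng itself was at 3.32 in the HLF-deficient and 3.46 in the WT tumour, a difference of -0.13 that turned to 0.02 after loess. The feedback inhibitor Socs1 also differed by -0.13.

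The proteases and reductase that prepare peptides and degrade the invariant chain were measured in full. Of the 7, none reached 2-fold, 2 were higher by 1.5-fold, and 6 were positive, with a median difference of 0.55 against 0.07 for all compared genes. Ctss, cathepsin S, the main protease for the invariant chain in dendritic and B cells, was at 7.42 in the HLF-deficient and 6.75 in the WT tumour, a difference of 0.67. Ctsb, cathepsin B, was at 9.59 in the HLF-deficient and 8.94 in the WT tumour. Ctsl, cathepsin L, which takes that role in thymic epithelium, was the one with a negative value, -0.19. The median stayed positive after loess at 0.39 and after quantile normalization at 0.36.

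Class I presentation, measured with the same arrays, had 1 of 9 compared genes beyond 2-fold, Tap1, against 1.86% of all compared genes. The median difference was 0.67 as deposited, 0.48 after quantile normalization and 0.50 after loess. The immunoproteasome subunit Psmb9 differed by 0.77. Nlrc5, the class I counterpart of Ciita, had a brightest probe set at -0.82, but its 19 probe sets ran from -0.82 to 0.46, 12 of them positive, with a mean of -0.02, so the gene had no clear direction. Of the co-stimulatory genes, 0 of 6 reached 2-fold, with a median of 0.09. Icam1, an adhesion molecule, and Cd274, the checkpoint ligand PD-L1, differed by 0.89 and 0.71, and Icam1 was beyond 2-fold with the arrays centred. Cd40, the receptor through which T cells activate dendritic cells, was near level at -0.03, and just above 0 under each other scaling.

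**Figure D3:**
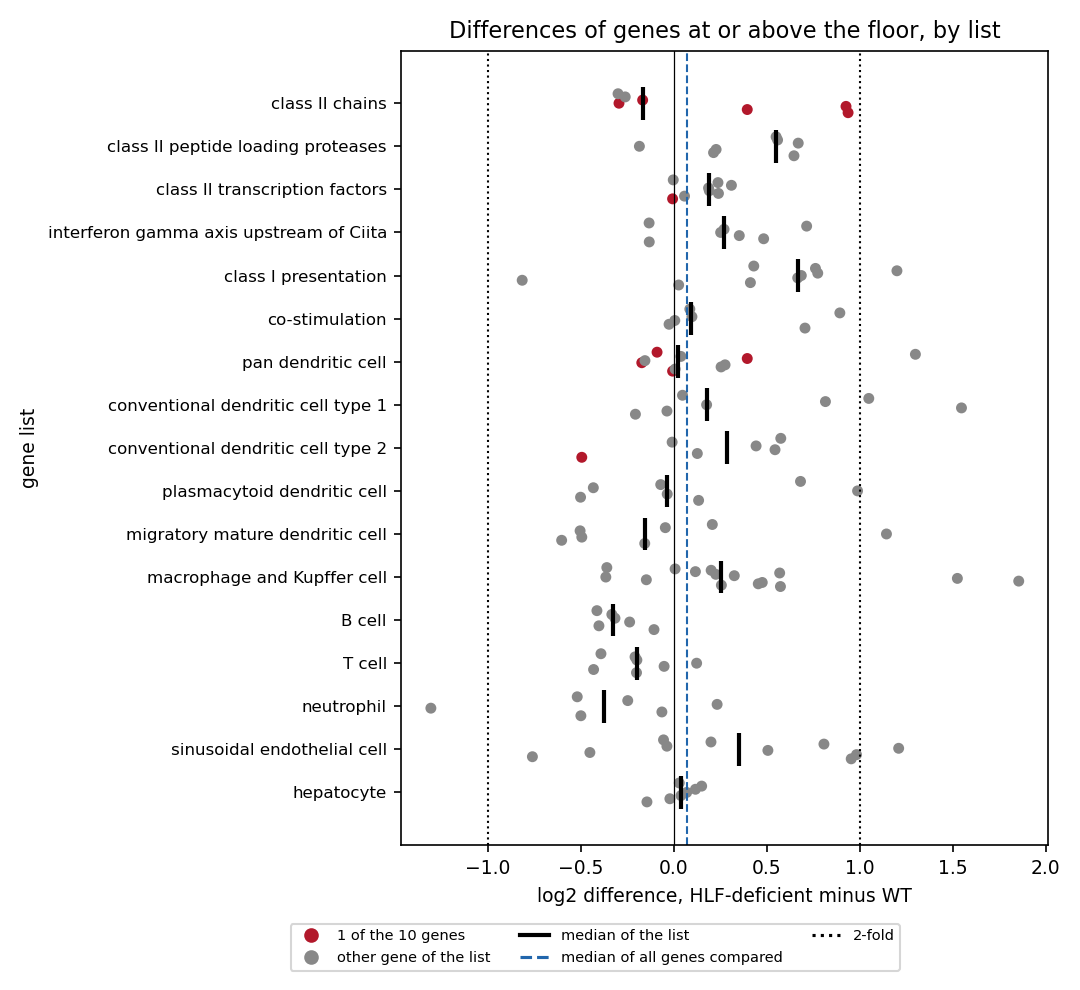
Log2 difference, HLF-deficient minus WT (horizontal axis), of each list's genes that reached the floor, with members in red and other genes in grey; black bars are list medians, the dashed line is the median of all compared genes and dotted lines mark 2-fold. The peptide loading proteases sit mostly right of the dashed line, with a median of 0.55, and the B cell genes left of it, with a median of -0.33.

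The dendritic cell markers among the members were dim. Clec9a, a receptor for dead-cell actin that marks type 1 conventional dendritic cells, lay under the floor at 1.83 in the HLF-deficient and 1.60 in the WT tumour, so no fold is given. Cd209a, a C-type lectin of type 2 conventional and monocyte-derived dendritic cells, was at 2.98 in the HLF-deficient tumour, level with the floor, and at 3.48 in the WT tumour. Its difference of -0.50 was the most negative of the members, and 5.53% of genes were as low or lower; after loess it was -0.33. Flt3, the receptor for the growth factor on which dendritic cells depend, was at 3.36 in the HLF-deficient and 3.53 in the WT tumour, a difference of -0.17, and genes of like level had the same median of -0.17. Zbtb46, a repressor that sets classical dendritic cells apart from other myeloid cells, was at 3.97 in the HLF-deficient and 4.06 in the WT tumour, a difference of -0.09 against a median of -0.10 for genes of like level. Flt3 and Zbtb46 thus lay at the middle of genes of their brightness. In whole tissue, fewer cells of a type and less RNA per cell cannot be told apart.

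Longer marker lists held lineage genes under the floor beside a few brighter genes that other cells also use. Of 12 markers of type 1 dendritic cells, 5 were under the floor on both arrays, namely Clec9a, Xcr1, Itgae, Ifi205 and Gpr33. Of the 7 compared, 2 were beyond 2-fold, against 1.86% of all compared genes, and the median difference was 0.18. The 2 were Cd24a and Tlr3, at 5.61 and 4.94 in the HLF-deficient and 4.06 and 3.89 in the WT tumour. Cd24a, a surface glycoprotein, is also known from epithelial progenitors, and Tlr3, a sensor of double-stranded RNA, from many cell types. Their differences were 1.55 and 1.05. The transcription factor Batf3, which type 1 dendritic cells require, differed by -0.21.

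Of 11 markers of type 2 dendritic cells, 5 were under the floor on both arrays, namely Clec10a, Irf4, Mgl2, Tnip3 and Clec4a4, and 0 of the 6 compared reached 2-fold. Sirpa, a receptor shared with macrophages, and Esam, shared with endothelium, differed by 0.58 and 0.54. Of the pan dendritic cell list, which holds 4 of the members, 1 of 10 was beyond 2-fold, against 1.86% of all compared genes. This was Kit, the stem cell factor receptor, also of mast and progenitor cells, at 5.43 in the HLF-deficient and 4.13 in the WT tumour. Flt3l, the ligand of Flt3, differed by -0.16.

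Of the plasmacytoid list 0 of 7 compared genes reached 2-fold, and the median was -0.04, or 0.09 with the arrays centred. Ly6d and Tcf4 differed by 0.99 and 0.68, and Cd300c and Pacsin1 by -0.50 and -0.43; Ly6d was past 2-fold with the arrays centred. Of 7 compared markers of mature, migrating dendritic cells, 1 was beyond 2-fold, against 1.86% of all compared genes. This was the actin bundler Fscn1, which tumour cells can also express, with a difference of 1.14. The chemokine Ccl22 was at 2.38 in the HLF-deficient tumour, under the floor, and 2.98 in the WT tumour, and Nudt17 differed by -0.51. The median of this list was -0.16 as deposited, -0.04 with the arrays centred and -0.00 after quantile normalization or loess.

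Markers of the other cell types that can carry class II differed in both directions. Of 15 measured macrophage and Kupffer cell markers, none was under the floor on both arrays, 12 were positive and 2 were beyond 2-fold, against 58.2% and 1.86% of all compared genes. The median was 0.26 as deposited, 0.12 after quantile normalization and 0.16 after loess. Those beyond 2-fold were Cd14, an endotoxin co-receptor, and Cd68, a lysosomal protein of phagocytes, with differences of 1.86 and 1.53. Clec4f and Vsig4, of resident Kupffer cells, differed by -0.37 and -0.36. The summed linear level of the list, in which the brightest genes weigh most, was 1305 in the HLF-deficient and 971 in the WT tumour. Of 10 sinusoidal endothelial markers, 1 was beyond 2-fold as deposited, the hyaluronan receptor Lyve1 at 1.21, and 3 were with the arrays centred. The lectin Clec4g and the Fc receptor Fcgr2b, both of sinusoidal endothelium, differed by -0.76 and -0.45, and 4 of the 10 were negative. The median was 0.35 as deposited, 0.16 after quantile normalization and 0.20 after loess. The summed linear level of these markers, again weighted to the brightest genes, was 1099 in the HLF-deficient and 950 in the WT tumour. The part of macrophages and endothelium in the higher Cd74, H2-Ab1 and H2-Aa was not tested.

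B cell markers did not go the way of Cd74 and H2-Ab1. Of 10 measured, 4 were under the floor on both arrays, among them the defining genes Ms4a1 and Cd79a. The 6 compared were all negative as deposited at their brightest probe sets, with a median of -0.33, and -0.25 after loess. Of these, Ighm, named after its values were seen, had 3 probe sets from -0.33 to 0.40. Their mean was -0.00, so Ighm had no clear direction. The transcription factor Pax5 was at 3.36 in the HLF-deficient and 3.78 in the WT tumour, and Blk, a kinase, differed by -0.40. Under each of the other scalings 1 of the 6 was positive. The summed linear level of the list was 101 in the HLF-deficient and 123 in the WT tumour. This sum includes the 4 genes under the floor and the brightest probe set of Ighm. T cell markers, the partners of class II, had a median of -0.20 as deposited, -0.08 with the arrays centred and -0.04 after loess, with Cd3e at -0.43 and Cd4 itself at 3.19 in the HLF-deficient and 3.07 in the WT tumour, and the 8 measured had a summed linear level of 80.0 in the HLF-deficient and 94.2 in the WT tumour. Of the list for neutrophils, which do not carry class II at rest, 1 of 6 compared genes was beyond 2-fold in its measured value. This was Ngp, at 1.95 in the HLF-deficient tumour, under the floor, and 3.26 in the WT tumour. The share beyond 2-fold over all compared genes was 1.86%.

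The direction of 7 of the 9 compared members was the same under every scaling of the arrays, and the sign of Ciita and Zbtb46 depended on it. Cd74, H2-Ab1 and H2-Aa were positive throughout, from 0.78 to 1.06, from 0.73 to 1.05 and from 0.23 to 0.52. H2-Eb1, H2-DMa, Flt3 and Cd209a were negative throughout, although H2-Eb1 and Flt3 came to -0.02 after quantile normalization or loess. As deposited, 5 of all 10 members had differences larger than the technical SD of 0.233, namely Cd74, H2-Ab1, H2-Aa, H2-DMa and Cd209a. Among the compared members, only Cd74, H2-Ab1 and Cd209a exceeded it under every scaling. H2-Aa fell under it at 0.226 after quantile normalization and 0.230 after loess. H2-DMa was within it under each other scaling, at -0.17 with the arrays centred and -0.19 after quantile normalization or loess.

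**Figure D4:**
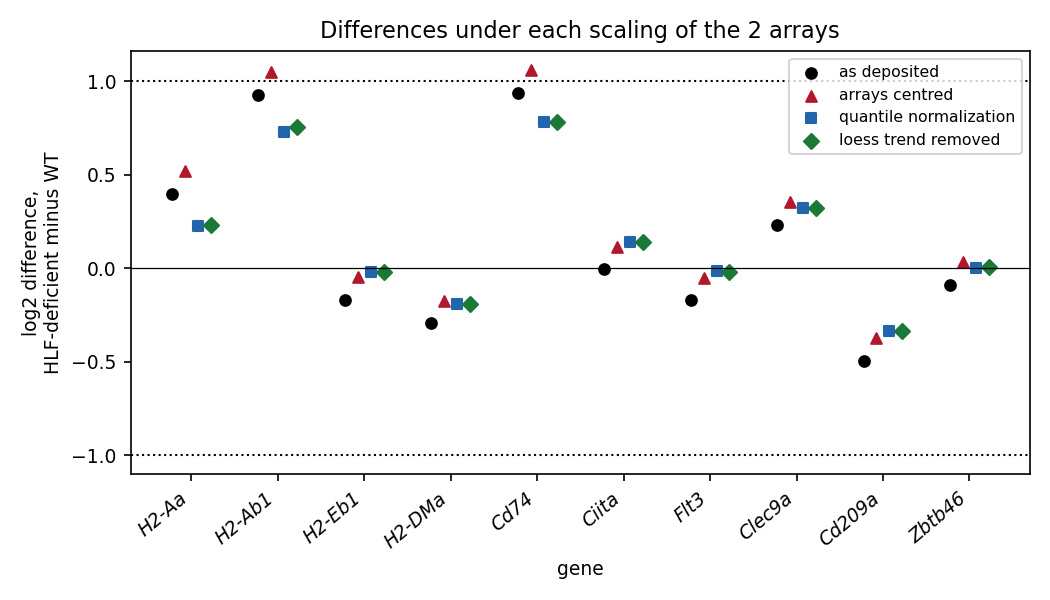
Log2 difference, HLF-deficient minus WT (vertical axis), of the 10 genes with the values as deposited, with each array centred on its median, after quantile normalization and after removal of a loess trend; dotted lines mark 2-fold. Only the centred values of Cd74 and H2-Ab1, 1.06 and 1.05, lie past 2-fold.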

How the data were processed

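RNA from 1 HLF-deficient and 1 WT carcinoma was measured on 1 array each. The authors' deposited log2 values are RMA expression made with Affymetrix Expression Console, per the submitters' processing notes; the scale was read from the values. Which arrays were normalized together, and tool versions, are not given in the sources used here. RMA compresses differences near background. Of 35556 probe sets, 21789 named 1 gene in the platform annotation, 1621 several and 12146 none; only the first kind was used, and 21698 were found by gene identifier in a RefSeq table, where 0 symbols changed. A gene with several probe sets was given by the one with the highest mean.

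The members and lists were chosen with earlier results of these data known. Named genes are the members, Hlf, up to 2 per direction of each list and marker genes under the floor. The promoter letters and the comparison with genes of like level were chosen after the data were seen. Alternatives were centring, quantile normalization, loess (span 0.4), the mean of probe sets, other floors and rules of 1.5-fold and 4-fold. The rule of size was tested on simulated data. Python 3.11.15, pandas 2.3.3 and statsmodels 0.14.6 were used.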

Additional observations from a re-analysis of the deposited data

How the results depend on the processing

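The median difference of the 9 compared members was -0.09 as deposited and turned to 0.03 with the arrays centred and to about 0 after quantile normalization or loess. With the arrays centred, 2 members, Cd74 and H2-Ab1, were beyond 2-fold, as were 2 genes of the class II pathway lists, the same 2. In that setting 294 genes of the series were higher by 2-fold, against 219 as deposited, and 32 were lower, against 53 as deposited. A rule of 1.5-fold gave 2 members, and 1386 genes of the series, 930 higher and 456 lower. A rule of 4-fold gave 36 genes, 27 higher and 9 lower. The other alternatives run left 0 members beyond 2-fold and the counts over all genes within 1.5 times of the deposited ones. Of 45 values of single members under alternatives, 45 moved by less than the technical SD of 0.23 and 6 changed sign, those of Ciita and Zbtb46. Taking the mean of probe sets or raising values below the floor to it could not move them. Each compared member had 1 probe set and was above the floor on both arrays. Centring adds 0.12 to every difference, so it could not exceed that SD either. Only quantile normalization and loess could have done so. Clec9a was below the floor and was not compared. No paired analysis was possible because there was 1 array per genotype, and for the same reason no replicate could be left out. Levels near the floor limit what can be seen of the dendritic cell genes, and precision is limited by the number of arrays.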
